A study of Arabidopsis thaliana with 12 samples.

Results

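The Arabidopsis genes of glucosinolate synthesis and of the myrosinase system were followed over 4 genotypes of whole seedlings: 36 loci, of the 25383 loci that the array measured. They were chosen by function, with earlier results of these data known. They comprise 3 aliphatic and 3 indolic MYB regulators, 8 genes of side-chain elongation, 7 of the aliphatic core pathway, 3 core enzymes shared by both branches, 5 of the indolic core pathway and 7 of the myrosinase system. Every one of the 36 loci had a probe that passed the filter on dim signals in at least 1 genotype, so none was left out of the tests.

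Glucosinolates are sulfur-rich defence compounds of Arabidopsis and its relatives. They are built from amino acids: methionine with a lengthened side chain gives the aliphatic compounds, tryptophan gives the indolic ones, and MYB transcription factors switch on the genes of each branch. When tissue is damaged, thioglucosidases called myrosinases cut off the sugar, and accessory proteins steer the product towards isothiocyanates, nitriles or epithionitriles.

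The study compared 3 independent samples of each genotype on 1-colour Agilent arrays, all from seedlings of 10 days in the Col0 background, grown without treatment on GM medium under white light in long days. The genotypes were wild type (WT), arf2-8 (here arf2; ARF2 encodes an auxin response factor that represses transcription), gnc gnl (GNC and GNL encode GATA transcription factors) and, by its label, arf2 gnc gnl. The gnc and gnl alleles, and how many seedlings made up a sample, are not given in the sources used here. Signals are written below as a percentage of the WT mean, after each array was scaled to the 75th percentile of its own signals, and the WT mean was taken on the log2 scale. Differences between genotypes are log2 differences ± standard error from limma, with p-values adjusted over all 19020 genes tested. A gene is said to have risen, fallen or differed where that adjusted p was below 0.05.

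The genotype genes were read first, as a check of the labels. ARF2 measured 2.07, 0.392 and 3.04% of the WT mean in the arf2 libraries, where replicates 1 and 2 were not well above background, but 56.8, 54.4 and 70.5% in the 3 libraries of the label arf2 gnc gnl. For GNC the values were 4.41, 5.89 and 3.92% in gnc gnl and 6.4, 5.65 and 5.61% under that label. GNL was not well above background on any gnc gnl array, at least 9.51-fold below WT, and measured 168, 179.7 and 179.9% under that label. For ARF2 and GNL these 3 libraries therefore go against their label, and each result that rests on them is given as that of the libraries labelled arf2 gnc gnl.

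Across the 12 arrays, 64.6 to 70.2% of probes were well above background, no spot was saturated, and arrays of 1 genotype correlated with r between 0.988 and 0.996. The arrays lay on 3 slides. All WT arrays shared slide 1 with arf2 replicate 1. The remaining arf2 arrays were on slide 2, beside replicates 1 and 2 labelled arf2 gnc gnl. Slide 3 carried replicate 3 of that label and every gnc gnl array. WT shared no slide with gnc gnl or with the libraries labelled arf2 gnc gnl, and arf2 shared none with gnc gnl. For these pairs slide and genotype cannot be told apart by a direct comparison. Of the tissue marker lists, the 7 green leaf genes were well above background on every array. The summed signal of the 13 seed markers, in multiples of the 75th percentile, ran from 1.67 to 2.31 in WT, 56.9 to 95.1 in arf2, 3.49 to 32.8 in gnc gnl and 16.1 to 54.8 in the libraries labelled arf2 gnc gnl. RNA came from whole seedlings, so fewer cells of a type and less RNA per cell cannot be told apart in any value below.

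Over the 4 genotypes, 18 of the 36 loci differed by limma's F test, against 33.3% of all genes tested. In arf2 against WT, 6 loci differed, where 5.72% of all genes did: 3 were higher (2.48% of all genes) and 3 lower (3.24%). In gnc gnl against WT, 9 differed, 4 higher (12.5%) and 5 lower (12.1%), with 24.6% of all genes called, so this count was close to the background. In gnc gnl against arf2, 18 differed, 14 higher in gnc gnl (19.4%) and 4 lower (17.1%), with 36.5% of all genes called. The libraries labelled arf2 gnc gnl differed from WT at 2 loci, 1 higher (1.33%) and 1 lower (0.941%), with 2.27% of all genes called. They differed from arf2 at 7, 4 higher (4.26%) and 3 lower (4.5%), with 8.76% called, and from gnc gnl at 5, 4 higher (5.36%) and 1 lower (6.22%), with 11.6% called. These comparisons share samples and are not independent of each other. For 19 of the 36 loci the arf2 and WT arrays did not overlap, where this held for 25.6% of all genes. Of the 47 calls that these 6 comparisons give together, 31 kept an adjusted p below 0.05 in every fit without 1 library. Only SOT18 could not be fitted each time, as 1 WT value was missing. With slide as a block in limma, 0 of the 36 loci passed in gnc gnl against WT, where 0.152% of all genes passed. At an unadjusted p below 0.05, 4 of the 36 counted there, and the share of all genes at that threshold was not taken. In that fit 5 passed in arf2 against WT (2.37% of all genes) and 4 in gnc gnl against arf2 (2.19%). Its arf2 against WT differences, here and below, rest on arf2 replicate 1 alone, the only arf2 array on the slide of WT. They equal the differences within slide 1 and are no separate check.

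**Figure D1:**
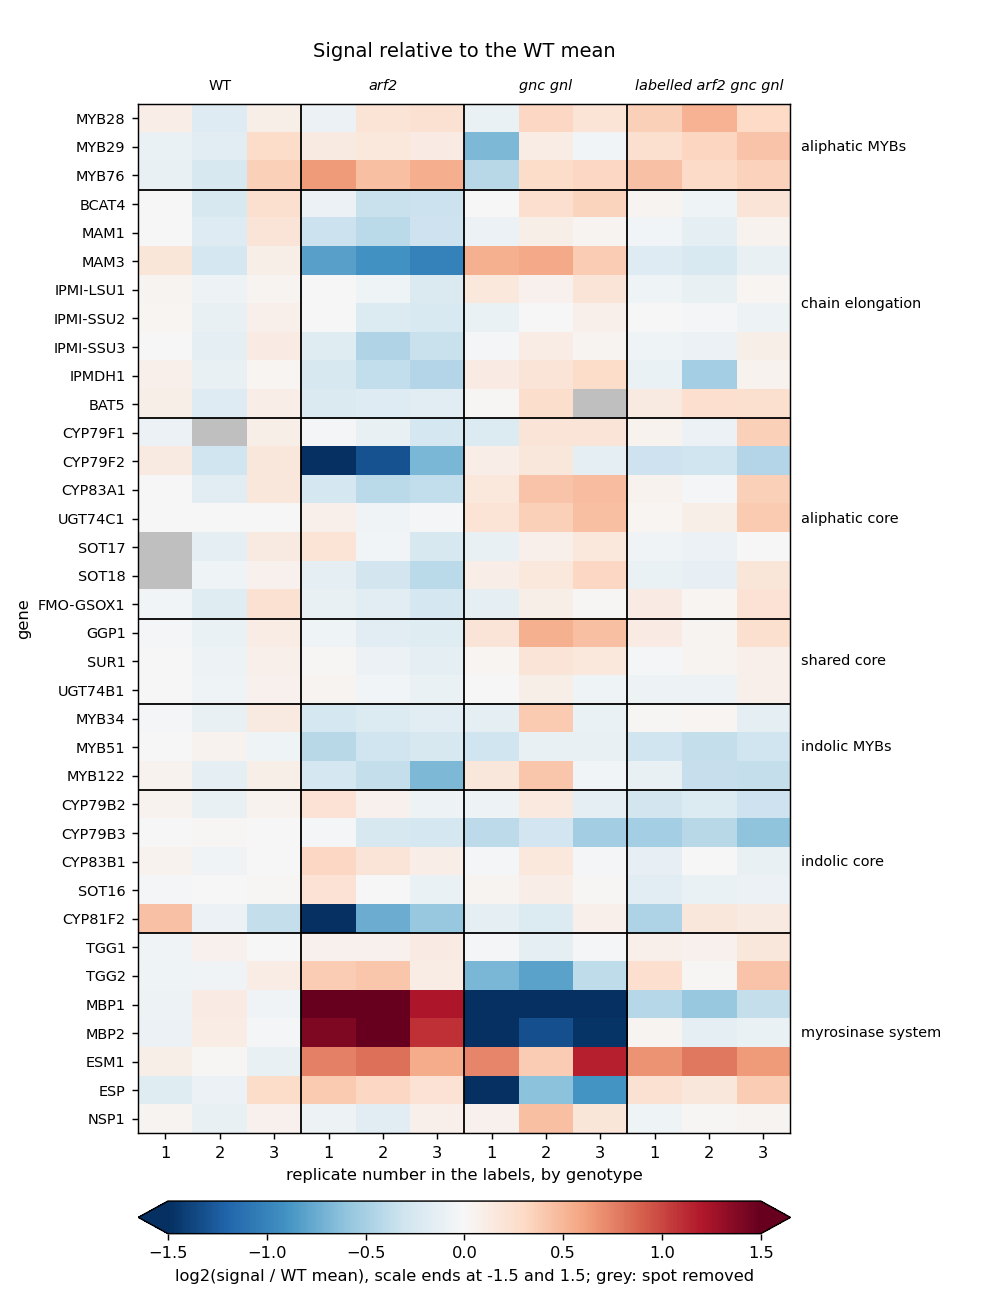
Log2 signal of each of the 36 loci on each of the 12 arrays relative to the WT mean, with loci grouped by role and arrays by genotype; red is above and blue below the WT mean, the scale ends at -1.5 and 1.5, and grey marks a removed spot. MBP1 and MBP2 are red in arf2 and blue in gnc gnl, while MAM3 and CYP79F2 are blue in arf2.

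The myrosinase-binding proteins showed the widest range of all 36 loci. MBP1 (AT1G52040) and MBP2 (AT1G52030) encode lectin-like proteins found in complexes with myrosinase, and they are direct neighbours in the genome. Both were more than doubled in arf2 and fell in gnc gnl to between 19.1 and 39.9% of WT. Of the 13 seed markers, 9 were also higher in arf2 than in WT (median difference 4.49), 8 were higher in gnc gnl than in WT (3.94), and 7 were lower and 2 higher in gnc gnl than in arf2 (-1.73), and their part in the MBP results was not tested. MBP1 measured 94.6, 109 and 96.8% in WT, 292, 289 and 232% in arf2, 19.1, 27.6 and 22.6% in gnc gnl and, in those labelled arf2 gnc gnl, 74.5, 67.5 and 77.9%. MBP2 measured 93.7, 108 and 99.1% in WT, 265, 282 and 213% in arf2, 34.5, 39.9 and 36.1% in gnc gnl and, in those labelled arf2 gnc gnl, 103, 90.7 and 93.0%. The arf2 arrays all lay above WT and the gnc gnl arrays all lay below it for both genes, with no overlap.

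MBP1 rose in arf2 by 1.43 ± 0.14 (adjusted p = 0.000173), a 2.7-fold difference, and fell in gnc gnl with a difference of -2.13 ± 0.14 (adjusted p = 1.24e-05), or 4.38-fold. For MBP2 the difference was 1.33 ± 0.11 (adjusted p = 8.08e-05) in arf2 and -1.44 ± 0.11 (adjusted p = 3.44e-05) in gnc gnl. Set directly against arf2, gnc gnl was 11.8-fold lower for MBP1 and 6.85-fold lower for MBP2, with adjusted p = 1.99e-07 for each. The libraries labelled arf2 gnc gnl lay between these extremes. Against arf2 they differed by -1.88 ± 0.14 (adjusted p = 0.00025) for MBP1 and -1.40 ± 0.11 (adjusted p = 0.000382) for MBP2, and against gnc gnl by 1.68 ± 0.14 (adjusted p = 0.000109) and 1.38 ± 0.11 (adjusted p = 0.000103). Against WT neither gene passed in them, at -0.45 and -0.07.

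The MBP differences were also taken where genotypes shared a slide. Within slide 1, arf2 replicate 1, a single array, stood 1.54 above the WT arrays for MBP1 and 1.41 for MBP2. Within slide 2, the libraries labelled arf2 gnc gnl differed from arf2 by -1.87 ± 0.14 (adjusted p = 0.0493) for MBP1 and by -1.34 ± 0.16 (adjusted p = 0.0891) for MBP2, the latter not passing. Within slide 3, replicate 3 labelled arf2 gnc gnl, again 1 array against 3, differed from the gnc gnl arrays by 1.77 for MBP1 and 1.34 for MBP2. With slide as a block, gnc gnl against WT, which rests on no shared slide, was -2.09 ± 0.33 (adjusted p = 0.0665) for MBP1 and -1.28 ± 0.27 (adjusted p = 0.128) for MBP2. Both calls were lost there, and slide and genotype cannot be told apart in this comparison. MBP2 had a second, dimmer probe with smaller differences of 0.81 in arf2 and -0.42 in gnc gnl. Probe sequences were not used here, so signal shared between these adjacent copies could not be checked.

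Of the myrosinase genes, TGG2 fell in gnc gnl and TGG1 did not pass in any comparison. TGG1 (AT5G26000) and TGG2 (AT5G25980) encode the classical thioglucosidases of the shoot. TGG2 measured 96.0, 96.8 and 108% in WT, 130.5, 133 and 108% in arf2, 62.4, 57.4 and 76.5% in gnc gnl and, in those labelled arf2 gnc gnl, 119, 101 and 135%. All gnc gnl arrays lay below every other array. The TGG2 difference was -0.62 ± 0.13 (adjusted p = 0.00822) for gnc gnl against WT, -0.92 ± 0.13 (adjusted p = 0.000569) against arf2, and 0.86 ± 0.13 (adjusted p = 0.00405) for the libraries labelled arf2 gnc gnl against gnc gnl. Blocking on slide, the gnc gnl value against WT was -0.79 ± 0.30 (adjusted p = 0.295) and no longer passed, and against arf2 it was -1.18 ± 0.24 (adjusted p = 0.0468). With normexp background correction the call against WT and that of the libraries labelled arf2 gnc gnl were lost (adjusted p = 0.0805 and 0.0523). TGG1 stayed between 90.1 and 112% of the WT mean on all 12 arrays, and its difference in gnc gnl was -0.07 ± 0.06 (adjusted p = 0.483). Both genes are known in guard cells. The summed stomatal marker signal was 4.51 to 5.03 in WT and 4.91, 4.21 and 2.53 in gnc gnl replicates 1 to 3. Of the 7 markers, 1 was lower in gnc gnl than in WT, where 12.1% of all genes were. The part of the stomatal markers in the TGG2 result was not tested.

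Among the proteins that steer the breakdown, ESP fell in gnc gnl, ESM1 was higher in all the mutant groups than in WT, and NSP1 did not pass. ESP (AT1G54040), the epithiospecifier protein, directs breakdown towards epithionitriles and nitriles. It measured 88.2, 94.0 and 121% in WT, 131, 124 and 116% in arf2, 32.5, 65.5 and 53.6% in gnc gnl and, in those labelled arf2 gnc gnl, 117, 112 and 130%. The gnc gnl arrays lay below all the others and varied among themselves more than those of the other genotypes. ESP differed by -1.04 ± 0.21 (adjusted p = 0.00648) in gnc gnl against WT, by -1.35 ± 0.21 (adjusted p = 0.000908) against arf2 and by 1.30 ± 0.21 (adjusted p = 0.00494) for the label arf2 gnc gnl against gnc gnl. Blocking on slide gave -1.10 ± 0.54 (adjusted p = 0.394), -1.49 ± 0.43 (adjusted p = 0.0952) and 1.42 ± 0.33 (adjusted p = 0.0842), none of which passed. In gnc gnl against WT, another bright ESP probe gave -0.93 and a dim one gave -0.37.

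ESM1 (AT3G14210), the epithiospecifier modifier, favours isothiocyanates. It was the fifth member of its group by the F test, beyond the 4 set for display, and is shown because it alone of the 36 passed against WT in all the mutant groups. Its signal was 106, 102 and 92.8% in WT, 168, 177 and 147% in arf2, 166, 131 and 225% in gnc gnl and, in those labelled arf2 gnc gnl, 160.1, 173 and 156%. No mutant array overlapped WT. The differences from WT were 0.71 ± 0.16 (adjusted p = 0.0285) in arf2, 0.76 ± 0.16 (adjusted p = 0.00758) in gnc gnl and 0.70 ± 0.16 (adjusted p = 0.0487) for the label arf2 gnc gnl. Leaving out any WT library, or arf2 replicate 1 or 2, ended the arf2 call (adjusted p from 0.0662 to 0.111). The call for the label arf2 gnc gnl was lost on leaving out any of 9 libraries, namely every library but arf2 replicate 3 and gnc gnl replicates 2 and 3 (0.059 to 0.175). The gnc gnl call held without each library and was 0.92 ± 0.41 (adjusted p = 0.361) with slide as a block. Blocking on slide also ended the calls in arf2, at 0.75 ± 0.25 (adjusted p = 0.168), and for the label arf2 gnc gnl, at 0.80 ± 0.33 (adjusted p = 0.68), and normexp background correction ended the same pair (adjusted p = 0.128 and 0.152). The blocked arf2 value is that of arf2 replicate 1, which stood 0.75 above WT within slide 1. Seed markers were also higher than in WT, 9 of 13 in arf2 and 8 of 13 in each of the other groups. Within gnc gnl their summed signal was 32.8, 10 and 3.49 in replicates 1 to 3, where ESM1 measured 166, 131 and 225%. The part of the seed markers in this result was not tested. NSP1 (AT3G16400), a nitrile-specifier protein, ranged from 88.7 to 137% of the WT mean over the arrays, with 0.24 ± 0.10 (adjusted p = 0.125) in gnc gnl against WT and 0.29 ± 0.10 (adjusted p = 0.0502) against arf2.

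**Figure D2:**
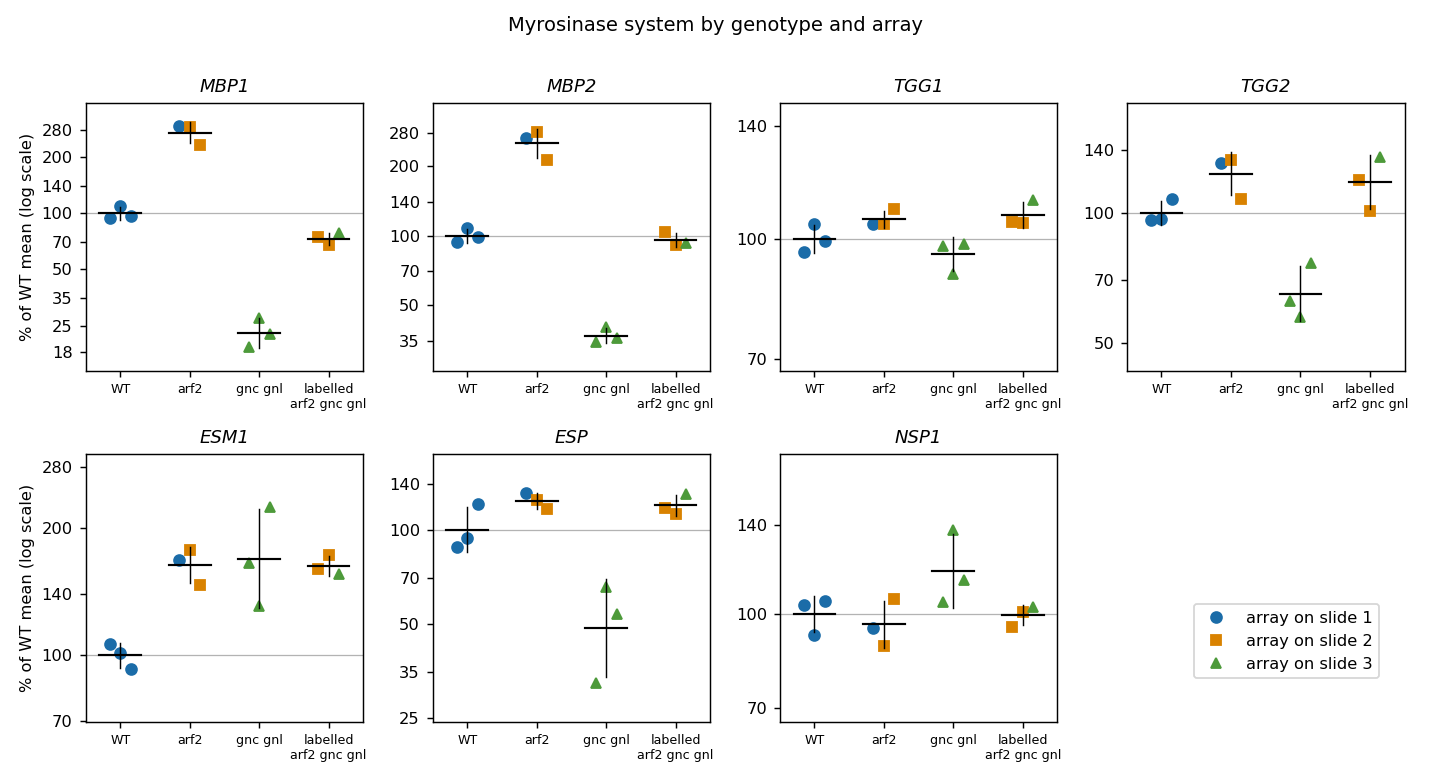
Signal of the 7 myrosinase-system genes as a percentage of the WT mean on a log axis, by genotype; each point is 1 array with its slide given by shape and colour, and the horizontal and vertical lines are the mean and SD on the log2 scale (n = 3). The gnc gnl arrays are the lowest for MBP1, MBP2, TGG2 and ESP, and all WT arrays are the lowest for ESM1.

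In aliphatic synthesis, most of the enzyme genes were higher in gnc gnl than in arf2, and no MYB regulator passed in any comparison. The difference between enzyme and regulator genes was not tested. Of the 15 enzyme and transporter genes of side-chain elongation and the aliphatic core, 11 were higher in gnc gnl than in arf2 and none was lower, where 19.4% of all genes were higher. In this comparison each of the 15 had a positive difference, and their median was 0.36, while the median over all genes tested was 0.0081. Fewer passed against WT: in arf2, 2 of the 15 fell and 13 did not pass, where 3.24% of all genes fell (median -0.25, against -0.0041 over all genes). In gnc gnl, 2 of the 15 rose and 13 did not pass, where 12.5% of all genes rose (median 0.14, against 0.0041), so this count was close to the background. With slide as a block 1 of the 15, MAM3, still passed in gnc gnl against arf2, where 2.19% of all genes were called. Normexp background correction ended 5 of the 11 calls, those of CYP79F2, BCAT4, BAT5, IPMI-LSU1 and MAM1 (adjusted p from 0.0758 to 0.145). In this comparison 4 of 10 root markers were higher in gnc gnl (median 0.59), where 19.4% of all genes were. Of the 13 seed markers, 7 were lower and 2 higher (median -1.73), where 17.1% of all genes were lower. The part of either list in the result was not tested.

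By limma, 0 of the 3 aliphatic MYB genes passed in the F test or in any of the 6 comparisons. At an unadjusted p below 0.05 MYB76 counted in arf2 against WT and in gnc gnl against arf2, and MYB28 and MYB29 counted once each, under the label arf2 gnc gnl against WT and against gnc gnl. MYB28 (AT5G61420) and MYB29 (AT5G07690) encode the main activators of the aliphatic pathway and MYB76 (AT5G07700) a further one. MYB28 measured 107.4, 87.6 and 106% in WT, 94.3, 115 and 117% in arf2, 93.1, 124 and 116% in gnc gnl and, in those labelled arf2 gnc gnl, 128, 143 and 122.8%. MYB29 measured 93.1, 89.0 and 121% in WT, 110.1, 111 and 108% in arf2, 62.6, 108 and 97.6% in gnc gnl and, in those labelled arf2 gnc gnl, 118, 125 and 134%. MYB76, a dim signal, measured 92.4, 84.6 and 128% in WT, 156, 136 and 146% in arf2, 74.7, 121 and 124% in gnc gnl and, in those labelled arf2 gnc gnl, 136, 122 and 127%. The arf2 and gnc gnl arrays overlapped with WT for MYB28 and MYB29, and gnc gnl replicate 1 was low for MYB29 and MYB76, while the arf2 arrays lay above WT for MYB76. In gnc gnl against arf2 the unadjusted 95% intervals of the difference were -0.26 to 0.31 for MYB28, -0.73 to 0.06 for MYB29 and -0.91 to -0.06 for MYB76, and the last had an adjusted p of 0.0695. The MYB29 and MYB76 differences, -0.34 and -0.49, had the opposite sign to those of the enzyme genes.

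In side-chain elongation, 7 of the 8 genes were higher in gnc gnl than in arf2, where 19.4% of all genes were higher. MAM3 (AT5G23020), a methylthioalkylmalate synthase that makes short and long chains, moved in opposite directions in the mutants. It measured 113, 83.2 and 106% in WT, 56.9, 53.1 and 49.5% in arf2, 144, 149 and 131% in gnc gnl and, in those labelled arf2 gnc gnl, 87.6, 85.1 and 92.3%. The arf2 arrays were below, and the gnc gnl arrays above, every other array. MAM3 fell in arf2 with a difference of -0.91 ± 0.11 (adjusted p = 0.000722) and rose in gnc gnl by 0.50 ± 0.11 (adjusted p = 0.00952). Between gnc gnl and arf2 the difference was 1.41 ± 0.11 (adjusted p = 1.67e-05), or 2.66-fold. The libraries labelled arf2 gnc gnl lay between, at 0.73 ± 0.11 (adjusted p = 0.0081) against arf2 and -0.68 ± 0.11 (adjusted p = 0.00494) against gnc gnl. With slide as a block the values were -0.81 ± 0.16 (adjusted p = 0.0377) for arf2 against WT, 0.55 ± 0.27 (adjusted p = 0.389) for gnc gnl against WT and 1.36 ± 0.21 (adjusted p = 0.0232) for gnc gnl against arf2. The label arf2 gnc gnl then gave 0.75 ± 0.14 (adjusted p = 0.0853) against arf2 and -0.61 ± 0.16 (adjusted p = 0.11) against gnc gnl, so both of its calls were lost. The blocked arf2 against WT value is that of arf2 replicate 1, which differed from WT by -0.81 within slide 1.

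Of the other elongation genes, IPMDH1 (AT5G14200), the isopropylmalate dehydrogenase of the cycle, measured 105, 92.8 and 102% in WT, 84.7, 77.2 and 73.5% in arf2, 109, 114 and 121% in gnc gnl and, in those labelled arf2 gnc gnl, 93.1, 70.3 and 103%. IPMI-SSU3 (AT3G58990), a small subunit of the isomerase, measured 101, 91.4 and 109% in WT, 88.1, 72.9 and 79.2% in arf2, 99.0, 108 and 103% in gnc gnl and, in those labelled arf2 gnc gnl, 95.6, 94.0 and 106%. For both, all arf2 arrays lay below all gnc gnl arrays and below all WT arrays. The gnc gnl minus arf2 difference was 0.55 ± 0.13 (adjusted p = 0.00659) for IPMDH1 and 0.37 ± 0.09 (adjusted p = 0.00952) for IPMI-SSU3, and it held for both without each library. Neither passed in arf2 against WT, at -0.35 (adjusted p = 0.144) and -0.33 (adjusted p = 0.0676).

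BAT5 (AT4G12030), which carries the chain-elongated keto acids across the plastid envelope, measured 106.7, 87.4 and 107.3% in WT, 86.0, 87.4 and 89.0% in arf2, 102 and 120.1% in gnc gnl and, in those labelled arf2 gnc gnl, 110, 119 and 118%, with 1 gnc gnl spot removed as an outlier. Its arf2 arrays were the lowest apart from WT replicate 2, which was level with them. BAT5 was higher than in arf2 both in gnc gnl, by 0.34 ± 0.11 (adjusted p = 0.0337) with n = 2, and under the label arf2 gnc gnl, by 0.40 ± 0.10 (adjusted p = 0.032). The first call was lost without arf2 replicate 1, 2 or 3 or gnc gnl replicate 2 (adjusted p from 0.0542 to 0.131). The second was lost on leaving out any of 7 libraries, arf2 replicates 1 and 2, gnc gnl replicates 1 and 2 and any of the 3 libraries themselves (0.0593 to 0.147), and with slide as a block (0.199) or normexp background correction (0.13). Without gnc gnl replicate 1 or 2 this probe kept 1 gnc gnl value, below the minimum of 2, so another, dimmer probe of the gene was tested, and a change of library and a change of probe cannot be told apart there.

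BCAT4, the aminotransferase that takes methionine into the pathway, MAM1, the synthase of the short chains, and IPMI-LSU1, the large isomerase subunit, were higher in gnc gnl than in arf2 by 0.45, 0.36 and 0.24 (adjusted p = 0.022, 0.0173 and 0.0287). None of these 3 passed against WT in either mutant. Each was lost on leaving out arf2 replicate 2, MAM1 also without gnc gnl replicate 2 (0.0564 to 0.0638), BCAT4 also without arf2 replicate 3 or gnc gnl replicate 2 or 3 (0.0609 to 0.0775) and IPMI-LSU1 also without arf2 replicate 3 or gnc gnl replicate 1 or 3 (0.0609 to 0.0928). IPMI-SSU2, another small subunit, did not pass, at 0.13 ± 0.08 (adjusted p = 0.238).

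In the aliphatic core pathway, 4 of 7 genes were higher in gnc gnl than in arf2, where 19.4% of all genes were higher. CYP79F2 (AT1G16400), which converts long-chain methionine derivatives to aldoximes, was the one that fell in arf2. It measured 109, 81.2 and 112% in WT, 34.99, 40.5 and 62.0% in arf2, 107.1, 113 and 90.7% in gnc gnl and, in those labelled arf2 gnc gnl, 80.3, 81.1 and 73.9%. All arf2 arrays lay below all others, and replicate 1 was the lowest. The difference was -1.17 ± 0.19 (adjusted p = 0.00565) in arf2 against WT, a 2.25-fold decrease, and 1.21 ± 0.19 (adjusted p = 0.000963) in gnc gnl against arf2, which became 1.17 ± 0.33 (adjusted p = 0.0899) with slide as a block. Within slide 1, arf2 replicate 1, a single array, differed from WT by -1.52. With normexp background correction the arf2 value was -1.05 and no longer passed (adjusted p = 0.132). CYP79F2 exceeded arf2 under the label arf2 gnc gnl by 0.82 ± 0.19 (adjusted p = 0.0288), a call lost without arf2 replicate 1 or 2 or any of the 3 libraries so labelled (0.0634 to 0.112), with slide as a block (0.167) or with normexp background correction (0.534).

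CYP79F1 (AT1G16410), the adjacent copy that takes short and long chains, did not pass: its difference was -0.13 ± 0.16 (adjusted p = 0.742) in arf2, with 1 WT spot removed, and its 95% interval ran from -0.48 to 0.22. CYP83A1 (AT4G13770), which oxidises the aldoximes, measured 99.8, 89.0 and 113% in WT, 83.5, 75.6 and 77.7% in arf2, 112, 135 and 138% in gnc gnl and, in those labelled arf2 gnc gnl, 104, 98.2 and 128%. The arf2 arrays were the lowest, and replicate 3 of the libraries labelled arf2 gnc gnl, on slide 3 with gnc gnl, read nearer to the gnc gnl arrays than its 2 partners on slide 2 did. CYP83A1 was higher in gnc gnl than in arf2 by 0.69 ± 0.12 (adjusted p = 0.0017), or 0.39 ± 0.20 (adjusted p = 0.28) with slide as a block. It was also higher in the libraries labelled arf2 gnc gnl than in arf2, by 0.47 ± 0.12 (adjusted p = 0.0387), a call lost on leaving out WT replicate 1, any arf2 library or any of the 3 libraries themselves (0.0556 to 0.137), with slide as a block (0.177) or with normexp background correction (0.177).

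UGT74C1 (AT2G31790), a glucosyltransferase, measured 99.6, 100.4 and 100% in WT, 105, 96.7 and 99.0% in arf2, 116, 128 and 137% in gnc gnl and, in those labelled arf2 gnc gnl, 102, 106 and 131%. It rose in gnc gnl by 0.34 ± 0.10 (adjusted p = 0.0287) against WT and 0.34 ± 0.10 (adjusted p = 0.0207) against arf2. Its slide 3 arrays read high in both genotypes present there, and with slide as a block the values were 0.11 ± 0.17 (adjusted p = 0.81) and 0.03 ± 0.13 (adjusted p = 0.908). The call against WT was lost without any WT library or gnc gnl replicate 2 or 3 (0.0695 to 0.0848), and that against arf2 without arf2 replicate 2 or gnc gnl replicate 2 or 3 (0.054 to 0.0728). SOT18 (AT1G74090), a sulfotransferase of the last core step, measured 96.0 and 104% in WT, 91.2, 82.4 and 75.7% in arf2, 108, 112 and 124% in gnc gnl and, in those labelled arf2 gnc gnl, 93.2, 91.7 and 113%, with 1 WT spot removed. All arf2 arrays were below all gnc gnl arrays, and the difference was 0.46 ± 0.11 (adjusted p = 0.00751). SOT17, the other aliphatic sulfotransferase, and FMO-GSOX1, which oxygenates the side chain, did not pass, with gnc gnl minus arf2 differences of 0.06 and 0.16.

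**Figure D3:**
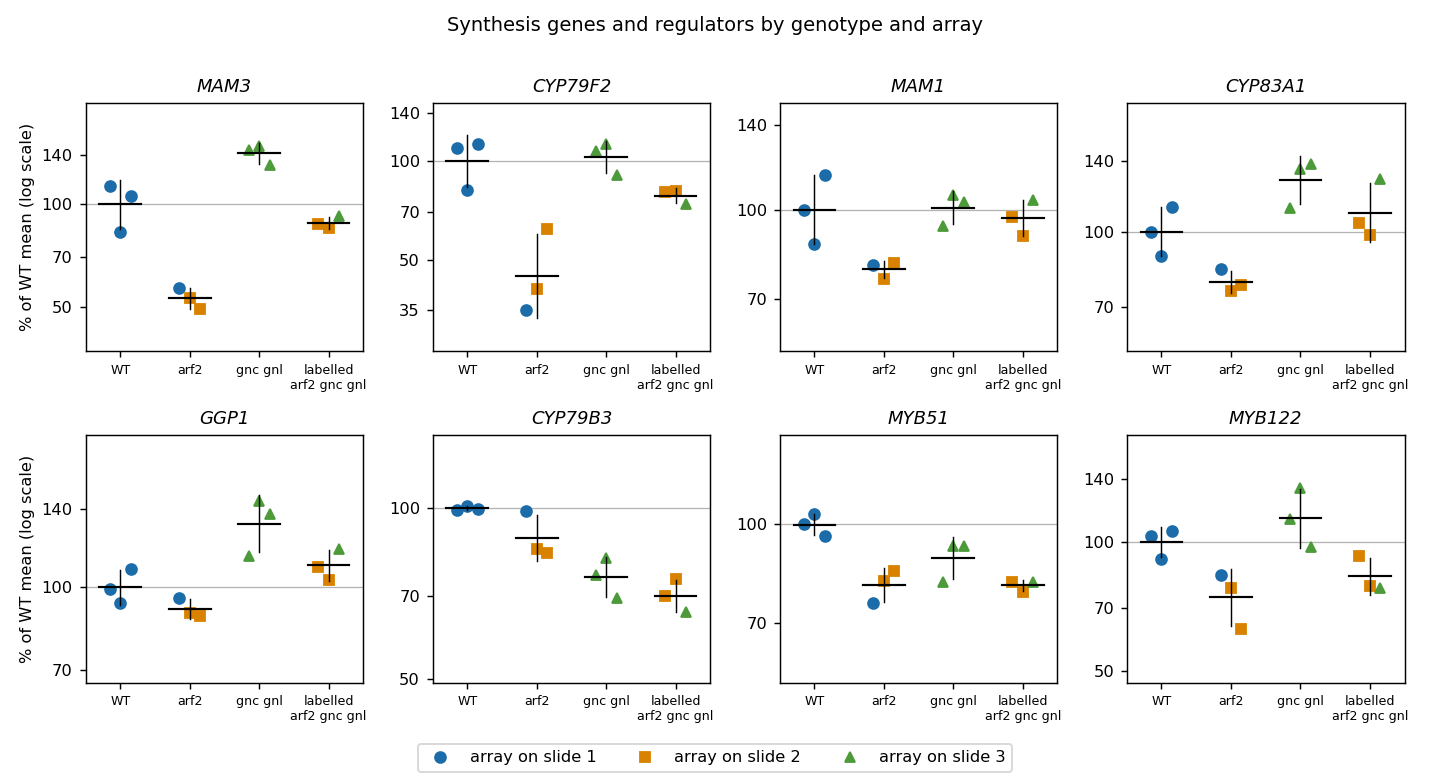
Signal of 8 synthesis and regulator genes as a percentage of the WT mean on a log axis, by genotype; each point is 1 array with its slide given by shape and colour, and the lines are the mean and SD on the log2 scale (n = 3). MAM3 and CYP79F2 are lowest in arf2, GGP1 is highest in gnc gnl, and CYP79B3 on slide 1 is as high in arf2 as in WT.

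Of the core enzymes that serve both branches, GGP1 rose in gnc gnl and SUR1 and UGT74B1 did not pass. GGP1 (AT4G30530), the gamma-glutamyl peptidase that trims the glutathione conjugate, measured 99.1, 93.2 and 108% in WT, 95.6, 89.4 and 88.2% in arf2, 115, 145 and 137% in gnc gnl and, in those labelled arf2 gnc gnl, 109, 103 and 118%. Every gnc gnl array lay above every WT and arf2 array. The difference was 0.39 ± 0.10 (adjusted p = 0.0149) against WT and 0.53 ± 0.10 (adjusted p = 0.00205) against arf2, or 0.35 ± 0.23 (adjusted p = 0.52) and 0.41 ± 0.18 (adjusted p = 0.219) with slide as a block. The call against WT was lost without WT replicate 2 or gnc gnl replicate 2 (0.0647 and 0.0523), and a second GGP1 probe gave 0.10. SUR1 (AT2G20610), the C-S lyase, measured 99.8, 95.2 and 105% in WT, 102, 93.9 and 91.3% in arf2, 102, 115 and 111% in gnc gnl and, in those labelled arf2 gnc gnl, 97.8, 103 and 105%. UGT74B1 (AT1G24100), the main glucosyltransferase, measured 99.7, 95.9 and 105% in WT, 103, 96.8 and 93.4% in arf2, 100.2, 106 and 95.3% in gnc gnl and, in those labelled arf2 gnc gnl, 94.8, 95.1 and 106%. The genotypes overlapped with WT for both, and the 95% interval of gnc gnl against WT was -0.03 to 0.29 for SUR1 and -0.15 to 0.17 for UGT74B1.

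Of the indolic MYB genes, MYB51 fell in arf2, and MYB34 and MYB122 did not pass against WT. MYB51 (AT1G18570), MYB34 (AT5G60890) and MYB122 (AT1G74080) encode activators of indolic glucosinolate synthesis. MYB51 measured 100.2, 104 and 96.0% in WT, 75.1, 81.4 and 84.5% in arf2, 81.1, 92.6 and 92.6% in gnc gnl and, in those labelled arf2 gnc gnl, 81.2, 78.4 and 81.1%. MYB34 measured 98.1, 92.7 and 110% in WT, 83.0, 86.8 and 88.8% in arf2, 91.4, 131 and 93.4% in gnc gnl and, in those labelled arf2 gnc gnl, 101, 102 and 90.5%. MYB122 measured 103, 91.2 and 106% in WT, 83.5, 78.1 and 62.6% in arf2, 113, 133 and 97.2% in gnc gnl and, in those labelled arf2 gnc gnl, 92.8, 78.9 and 78.1%. For each of the 3, every arf2 array read below every WT array. Arrays of arf2 and WT did not overlap, in either direction, for 25.6% of all genes. In arf2 the differences from WT were -0.32 ± 0.07 (adjusted p = 0.032) for MYB51, -0.21 ± 0.13 (adjusted p = 0.416) for MYB34 and -0.43 ± 0.14 (adjusted p = 0.103) for MYB122. The MYB51 call was close to the threshold and was lost on leaving out any of 7 libraries, WT replicates 1 to 3, arf2 replicates 1 and 2 and replicates 1 and 2 labelled arf2 gnc gnl (0.0501 to 0.115), with slide as a block (0.0776) or with normexp background correction (0.294). MYB122 was higher in gnc gnl than in arf2 by 0.61 ± 0.14 (adjusted p = 0.00583), which held without each library. That call was lost with slide as a block, at 0.83 ± 0.26 (adjusted p = 0.107), and with normexp background correction, at 0.09 (adjusted p = 0.892).

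In the indolic core pathway, CYP79B3 was lower than in WT in gnc gnl and under the label arf2 gnc gnl, and CYP81F2 differed between gnc gnl and arf2. CYP79B3 (AT2G22330) and CYP79B2 (AT4G39950) encode enzymes that convert tryptophan to indole-3-acetaldoxime. CYP79B3 measured 99.4, 101 and 99.6% in WT, 98.8, 84.8 and 83.3% in arf2, 76.3, 81.8 and 69.5% in gnc gnl and, in those labelled arf2 gnc gnl, 70.1, 74.97 and 65.8%. CYP79B2 measured 104, 92.8 and 104% in WT, 116, 105 and 94.7% in arf2, 94.9, 111 and 91.3% in gnc gnl and, in those labelled arf2 gnc gnl, 82.4, 86.4 and 80.7%. For CYP79B3 the WT arrays lay within 2% of each other, and arf2 replicate 1, on the same slide, was level with them while the arf2 replicates on slide 2 were lower. The CYP79B3 difference from WT was -0.40 ± 0.09 (adjusted p = 0.00866) in gnc gnl and -0.51 ± 0.09 (adjusted p = 0.0141) for the label arf2 gnc gnl. Once slide entered as a block, these became -0.03 ± 0.17 (adjusted p = 0.953) and -0.23 ± 0.13 (adjusted p = 0.805), and neither passed. WT shared no slide with either group, so slide and genotype cannot be told apart here. With normexp background correction neither call passed (adjusted p = 0.0887 and 0.173). The second call was also lost on leaving out WT replicate 1 or 2, or replicate 1 or 3 of that label (0.0543 to 0.0748). Against arf2 those libraries differed by -0.34 ± 0.09 (adjusted p = 0.0378), a call lost on leaving out any of 8 libraries, namely every WT library, arf2 replicates 1 and 2 and all 3 of those labelled arf2 gnc gnl (0.0525 to 0.139), with slide as a block (0.26) or with normexp background correction (0.287). CYP79B2 did not pass in any comparison.

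CYP83B1 (AT4G31500), which takes the indolic aldoxime onward, measured 103, 96.4 and 100.3% in WT, 124, 114 and 107.1% in arf2, 97.7, 112 and 98.5% in gnc gnl and, in those labelled arf2 gnc gnl, 91.7, 100.2 and 92.3%. It did not pass, at 0.20 ± 0.08 (adjusted p = 0.193) in arf2. CYP81F2 (AT5G57220), which hydroxylates the indole ring, gave a dim signal of 135, 94.5 and 78.2% in WT, 34.4, 59.5 and 67.5% in arf2, 90.8, 86.7 and 105% in gnc gnl and, in those labelled arf2 gnc gnl, 72.6, 113 and 109%. WT replicate 1 was high and arf2 replicate 1 low. CYP81F2 was higher in gnc gnl than in arf2 by 0.86 ± 0.27 (adjusted p = 0.0286), a call lost without arf2 replicate 1 or gnc gnl replicate 1 or 3 (0.0551 to 0.0964), while arf2 against WT was -0.95 ± 0.27 (adjusted p = 0.0685). Slide as a block changed both: the first became 0.29 ± 0.41 (adjusted p = 0.707), and arf2 against WT became -1.54 ± 0.31 (adjusted p = 0.0381), which passed. The latter rests on arf2 replicate 1, the only arf2 array on the slide of WT. With normexp background correction gnc gnl against arf2 was 0.10 (adjusted p = 0.891). SOT16, the indolic sulfotransferase, ranged from 88.8 to 116% of the WT mean over the 12 arrays and did not pass.

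**Figure D4:**
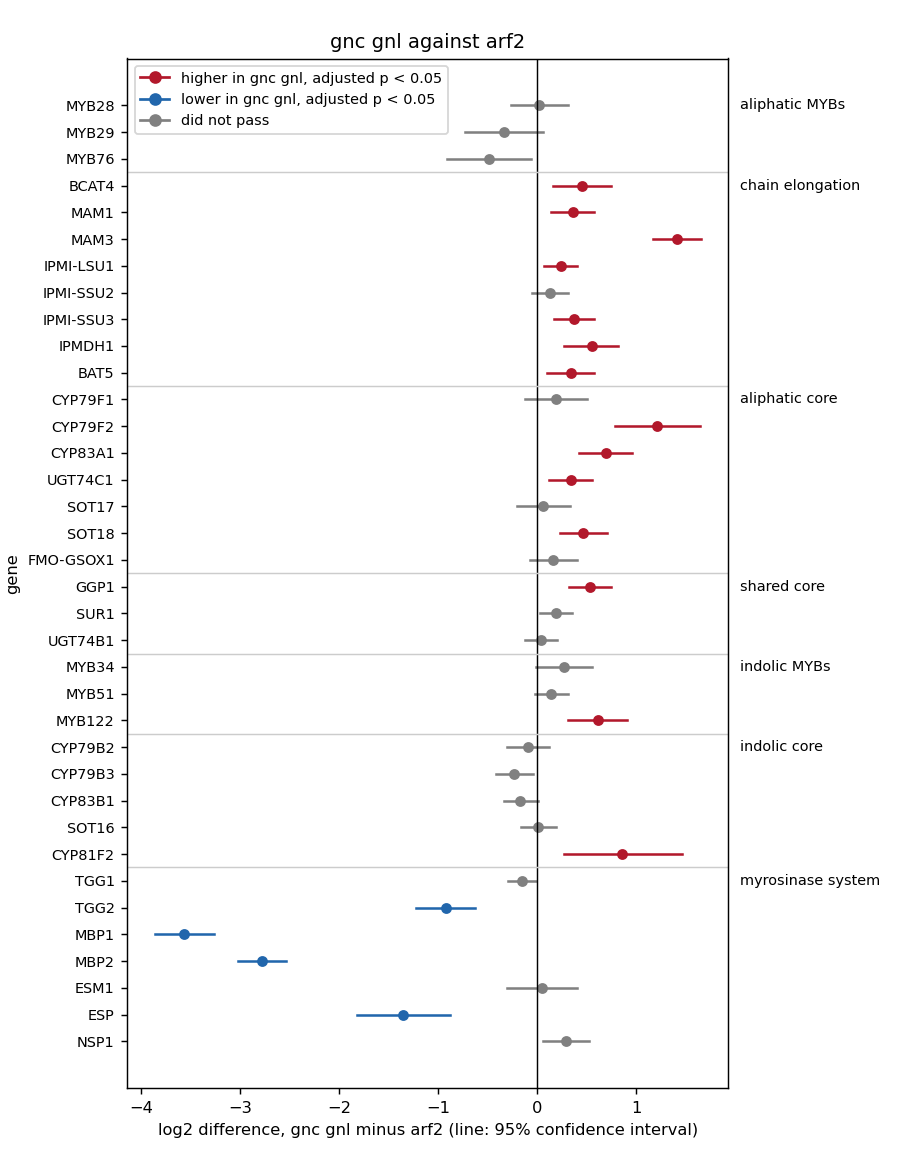
Log2 difference of gnc gnl minus arf2 for each of the 36 loci, with its 95% confidence interval as a line, grouped by role; red is higher and blue lower in gnc gnl with an adjusted p below 0.05, and grey did not pass. The 14 higher loci include 11 of the 15 aliphatic enzyme and transporter genes, and the 4 lower loci are TGG2, MBP1, MBP2 and ESP.

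Several of the 36 loci are neighbouring copies, and changes were compared within 5 such pairs in arf2 against WT, gnc gnl against WT and gnc gnl against arf2. These 15 relations were chosen after the values had been seen. With 3 arrays against 3 an exact two-sided permutation test cannot go below 0.1, so none could reach 0.05, and adjusting over the 15 gives at best 0.136. MAM3 moved relative to its neighbour MAM1 by -0.57 in arf2 and 0.48 in gnc gnl on the log2 scale, the groups not overlapping in either. CYP79F2 moved relative to CYP79F1 by -1.19 in arf2, also without overlap (p = 0.2, exact, with 2 WT arrays). TGG2 moved relative to TGG1 by -0.56 in gnc gnl. MBP1 moved relative to MBP2 by -0.69 in gnc gnl and by 0.10 in arf2. MYB76 moved relative to MYB29 by 0.41 in arf2 and 0.25 in gnc gnl. Signal shared by near-identical copies was not tested.

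A further 47 genes of the same pathways were listed by function, among them glutathione transferases, transporters, other regulators and atypical myrosinases. AOP2 and AOP3 had no matched probe, and BZO1 and ASB1 stayed below the filter, which left 43. In arf2 against WT, 2 of the 43 fell and none rose, or 4.65% against 5.72% of all genes called. In gnc gnl against WT, 9 rose and 1 fell, or 23.3% against 24.6%, and in gnc gnl against arf2, 16 were higher and 3 lower, or 44.2% against 36.5%. The libraries labelled arf2 gnc gnl differed from WT at 1 gene (2.33%, against 2.27% of all genes) and from arf2 at 3 (6.98%, against 8.76%). They differed from gnc gnl at 10, all lower (23.3%, against 6.22% of all genes lower). Of these calls, those of SDI1, BGLU28, GSTF10, CYP81F1 and GTR2, named below, did not hold without each library. Leaving out 1 library ended that of SDI1, and any of 8 ended that of BGLU28. With slide as a block none of these named calls passed (adjusted p from 0.116 to 0.37).

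The 6 of these genes with the smallest F test p are named. PEN2 (AT2G44490), the atypical myrosinase of leaf defence against fungi, measured 95.9, 98.0 and 106% in WT, 87.7, 82.2 and 93.7% in arf2, 130.3, 153 and 147% in gnc gnl and, in those labelled arf2 gnc gnl, 116, 123 and 129%. It rose in gnc gnl by 0.52 ± 0.08 (adjusted p = 0.00203), with all gnc gnl arrays above the rest. SDI1 (AT5G48850), a sulfur-deficiency-induced repressor of glucosinolate synthesis, measured 105, 90.5 and 106% in WT, 58.5, 80.3 and 78.3% in arf2, 250.4, 229 and 139.9% in gnc gnl and, in those labelled arf2 gnc gnl, 116, 99.1 and 98.5%. It rose in gnc gnl against WT (adjusted p = 0.00576), with all its gnc gnl arrays above WT, and exceeded arf2 there by 1.48 ± 0.20 (adjusted p = 0.000377). GTR2 (AT5G62680), a glucosinolate transporter, measured 118, 85.0 and 100.1% in WT, 75.5, 75.9 and 76.5% in arf2, 138, 157 and 114% in gnc gnl and, in those labelled arf2 gnc gnl, 91.5, 94.97 and 105%. GTR2 rose in gnc gnl by 0.44 ± 0.13 (adjusted p = 0.0335) against WT and 0.83 ± 0.13 (adjusted p = 0.000899) against arf2, and 1 gnc gnl array overlapped WT.

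GSTF10 (AT2G30870), a glutathione transferase, measured 106.9, 93.0 and 101% in WT, 106.9, 91.2 and 95.02% in arf2, 131, 139 and 156% in gnc gnl and, in those labelled arf2 gnc gnl, 116, 109.5 and 114%. CYP81F1 (AT4G37430), which modifies the indole ring as CYP81F2 does, measured 108, 95.7 and 96.7% in WT, 118, 106 and 102% in arf2, 147, 152 and 139% in gnc gnl and, in those labelled arf2 gnc gnl, 106, 112 and 122.9%. Both rose in gnc gnl, by 0.50 ± 0.09 (adjusted p = 0.0032) and 0.54 ± 0.08 (adjusted p = 0.00184), and their gnc gnl arrays lay above all others. BGLU28 (AT2G44460), a beta-glucosidase induced by sulfur deficiency, measured 101, 102 and 97.9% in WT, 36.5, 46.7 and 40.6% in arf2, 125, 96.9 and 50.8% in gnc gnl and, in those labelled arf2 gnc gnl, 48.7, 44.9 and 39.4%. It fell in arf2 with a difference of -1.28 ± 0.25 (adjusted p = 0.0148) and under the label arf2 gnc gnl with -1.18 ± 0.25 (adjusted p = 0.039), while gnc gnl ranged widely and did not pass against WT. The arf2 call was lost without WT replicate 1 or arf2 replicate 1 (0.0592 and 0.061), and the other without any WT library, arf2 replicate 1 or 2 or any of the 3 labelled libraries (0.0515 to 0.15). The GTR2 call against WT was lost without WT replicate 2 or 3 or gnc gnl replicate 1 or 2 (0.0743 to 0.132). With slide as a block the 5 genes that rose in gnc gnl had adjusted p from 0.209 to 0.766 against WT and from 0.0683 to 0.199 against arf2, so none of these calls held, and BGLU28 had 0.0915 in arf2 and 0.623 for the label arf2 gnc gnl. Normexp background correction ended the calls against WT of CYP81F1 and GTR2 (0.165 and 0.0824) and both of BGLU28 (0.0888 and 0.152). The summed signal of the root markers was 7.22 to 8.01 in gnc gnl, 5.53 to 6.62 in WT and 4.92 to 5.82 in arf2. In gnc gnl, 3 of 10 root markers were higher than in WT, where 12.5% of all genes were. Against arf2, 4 of 10 were higher, where 19.4% of all genes were, and the other root markers did not pass as higher. Their part in these results was not tested.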

How the data were processed

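Total RNA of 12 whole-seedling samples was labelled with Cy3 and hybridised to 1-colour Agilent arrays of 45220 spots. The deposited intensity values are the processed signals of Agilent Feature Extraction 10.7.3.1, per the file headers and the submitters' processing notes. The deposited series table held the same values (0 cells differed) and was not used further. Groups were taken from the labels. Slide numbers were read from the file headers.

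From these intensities, outlier and control spots were left out, log2 signals were reduced by each array's 75th percentile, and spots of a probe were averaged. Probes entered the tests where the scanner marked them well above background on the 3 arrays of any genotype, provided that no genotype had fewer than 2 values. Each gene took its brightest such probe, which left 19020 genes with 756 missing values in 647 of them. Probe loci came from the array files and names from the RefSeq table given (TAIR10.1). Means of the 4 genotypes were fitted with limma 3.58.1 in R 4.3.3 (lmFit, eBayes, 8 residual degrees of freedom before moderation), with an F test and 6 contrasts, Benjamini-Hochberg adjustment over all genes tested and a threshold of 0.05. The fit was tested on simulated data. The number of arrays limits the precision. The 36 loci, the lists and the tests were chosen with earlier results of these data known. Values on every array are given for up to 4 genes of each role with the smallest F test p, and for the 6 further pathway genes with the smallest.

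Alternatives were another normalization, background correction, filter, probe rule and set of samples, slide as a block, comparisons within a slide and leaving out each library.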

Additional observations from a re-analysis of the deposited data

How the results depend on the processing

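Of 76 calls of single genes, the genotype genes and named pathway genes included, 14 kept their side of the threshold under every alternative run, 62 lost it under at least 1 and none reversed. The 14 include MBP1 and MBP2 in arf2 against WT and in gnc gnl against arf2, MAM3 and TGG2 in gnc gnl against arf2, and MBP1 in the libraries labelled arf2 gnc gnl against arf2. Counts of the 36 loci that differ follow, in the order F test, arf2 against WT, gnc gnl against WT, libraries labelled arf2 gnc gnl against WT, gnc gnl against arf2, and those libraries against arf2 and against gnc gnl: 18, 6, 9, 2, 18, 7 and 5. With slide as a fixed block they were 5, 5, 0, 0, 4, 2 and 3, where 3.42, 2.37, 0.152, 0.0315, 2.19, 0.294 and 0.915% of all genes were called. Slide as a random block (consensus correlation 0.026) gave 1 for the labelled libraries against WT and left the others within 1.5 times. Within slide 2, 1 of the 36 differed between the labelled libraries and arf2 (0.0901% of all genes), and within slide 3, 0 of the 35 tested between the labelled libraries and gnc gnl (0.00534%). At an unadjusted p below 0.05 the counts of 0 with the slide block were 4 and 4, and the shares of all genes at that threshold were not taken. With normexp background correction the F test gave 8, arf2 against WT 3, the labelled libraries 0 against WT and 2 against arf2, and gnc gnl against arf2 11. Of all genes, 11.7, 0.599, 0.0789, 0.131 and 17.6% were called there. At an unadjusted p below 0.05 that 0 was 7, again without a share of all genes. Against WT the labelled libraries gave 1 without the filter on dim probes, 1 with the mean of all probes of a gene and 4 with only the groups compared in the fit, and against arf2 4 in that fit. Quantile normalization and keeping outlier spots left every count within 1.5 times. Leaving out the libraries labelled arf2 gnc gnl, an alternative chosen after seeing the data, gave 18 for the F test, 4 for arf2 against WT, 9 for gnc gnl against WT and 17 for gnc gnl against arf2. Leaving out 1 library at a time gave 12 to 18, 4 to 7, 7 to 10, 0 to 2, 13 to 18, 3 to 9 and 5 to 6. The causes of these changes were not tested.

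With the replicate number as a block the counts were 15, 5, 10, 1, 18, 6 and 5. Of 12 libraries, 5 correlated best with their own number (residual r from -0.367 to 0.37 over 18 pairs). With 3 arrays per genotype these values cannot decide whether the numbers pair the samples. Precision is limited by 3 arrays per genotype, by slides that hold few genotype pairs, and by dim signals such as those of MYB76, CYP79F2 and CYP81F2.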
